A study of Arabidopsis thaliana with 48 samples.

Results

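Of the 31004 genes of the table, 112 genes (0.361%) had a transcript level at least 2.5 higher on the log2 scale in apices than in leaves of wild-type *Arabidopsis thaliana*, both in short days (SDs) and in long days (LDs). They are called apex-enriched genes here. They were chosen on the group means of the wild type, so the wild-type difference between the tissues is a description and carries no test. The 4 genotypes were wild type with functional FLC and SVP, the single mutants *svp* (allele *svp-41*) and *flc* (allele *flc-3*), and the double mutant *flc svp*. Every line, wild type included, was of the Columbia background with an active FRIGIDA (FRI) allele brought in by crossing, so that FLC was transcribed at a high level in the controls. Plants were grown for 2 weeks in SDs, or for 2 weeks in SDs and then for 2 LDs, and leaves and apices were harvested 8 h after dawn. The labels of the SD plants also mention 2 further SDs, so it is not settled whether SD and LD plants were of the same age, and age cannot be told apart from day length. There were 3 biological replicates, per the study's methods, in each of the 16 groups of genotype, day length and tissue. Each was hybridised to its own AGRONOMICS1 array, an Affymetrix tiling array with probes along the genome. All values are log2 expression values, and a difference of 1 is a 2-fold change.

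FLC and SVP are MADS-box transcription factors that delay flowering, and FRI raises the transcription of FLC. The apex of a vegetative plant holds the shoot apical meristem, the youngest leaf primordia and the tissue beneath them. Homeobox genes of the KNOX class keep meristem cells undifferentiated, and cells of the meristem and of young primordia divide. Expanded leaves are made up mostly of differentiated cells rich in photosynthetic transcripts. Long days promote flowering in Arabidopsis through signals that are made in leaves and perceived at the apex.

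The arrays agreed closely, with correlations across genes of 0.986 to 0.993 between arrays of a group. FLC ranged from 8.40 to 9.80 on the arrays of lines with a functional FLC and from 5.09 to 7.05 on those of *flc* and *flc svp*. SVP stood between 7.41 and 8.59 with a functional SVP and between 6.46 and 7.63 in *svp* and *flc svp*, and the 2 sets did not overlap within a tissue. The marker lists of cell division, meristem, organ primordia, epidermis and photosynthesis separated the tissues on every array. Means of the flowering list overlapped, at 3.66 to 4.14 in apices and 3.72 to 4.21 in leaves. Xylem list means overlapped at 4.40 to 5.12 and 4.21 to 4.60, and root list means at 4.23 to 4.47 and 4.02 to 4.27. For xylem and root the group mean was higher in apices in every genotype and day length. The mean of 43 cell division genes lay at 7.20 to 7.48 in apices and 5.53 to 5.85 in leaves, that of 28 shoot meristem and organ boundary genes at 4.80 to 5.06 and 4.02 to 4.22, and that of 17 photosynthesis genes at 11.01 to 11.39 and 12.19 to 12.52. Among defining markers of small meristem domains, CLV3 stood at 2.87, WUS at 3.20, LAS at 3.41, CUC1 at 3.95 and CUC2 at 4.45 in SD apices of wild type, against a median of 4.32 over all values of the table. The apex samples are bulk tissue, in which more cells of a type and more RNA per cell cannot be told apart.

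The 10 genes with the widest wild-type difference were AT4G22520, PRXCA, AT3G05727, CDEF1, AT4G22513, AT4G22490, AT5G01870, AT4G11190, AT4G22517 and AT5G38940. For AT4G22520 the 3 SD arrays read 11.16, 11.11 and 11.25 in apices and 5.12, 4.78 and 5.48 in leaves, a difference of 6.05, and in LDs the difference was 6.62. PRXCA, a class III peroxidase of the cell wall, read 10.50, 10.52 and 10.22 in SD apices and 3.87, 4.35 and 5.11 in SD leaves. CDEF1, which encodes a cutinase, read 9.96, 9.85 and 10.23 against 3.97, 4.15 and 4.45. In all of these the lowest apex array lay far above the highest leaf array. At the other end, AT2G32280, AT1G65710 and RRA1 entered with a smaller difference of 2.51, 2.52 and 2.52, while AT1G65370, AT1G47400 and FD3 stayed out with 2.49, 2.49 and 2.47.

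Most apex-enriched genes lay above the median of all values in leaves as well as in apices. Their median group mean lay between 8.48 and 8.77 in the 8 apex groups and between 5.06 and 5.43 in the 8 leaf groups. In the apex groups 110 to 112 of them lay above 4.32, and in the leaf groups 80 to 85. They varied more between replicates than other genes. Their median SD within a group was 0.219 in apices and 0.294 in leaves, against 0.145 and 0.163 over all genes. The least even in leaves were AT4G22513 with an SD of 1.46, DFR with 1.12 and LDOX with 0.99.

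By position they were spread over the genome, with 28 on chromosome 1, 14 on chromosome 2, 22 on chromosome 3, 21 on chromosome 4 and 27 on chromosome 5. Within 5 loci of another apex-enriched gene lay 10 of them, in 4 places. AT4G22490, AT4G22513, AT4G22517 and AT4G22520 formed one run, and the pairs were AT1G49310 with USPL1, AT4G11290 with AT4G11320, and AT5G38930 with AT5G38940. Probes of near-identical neighbours can share signal, and such genes were not separated further.

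Of the lists of known genes, the cell division list gave 4 of its 43 genes: AUR2, a mitotic Aurora kinase, SYP111 (KNOLLE), the syntaxin of the cell plate, CDC20.1, an activator of the anaphase-promoting complex, and the B-type cyclin CYC1BAT. The meristem list also gave 4, of 28 genes: STM and KNAT1 (BREVIPEDICELLUS), KNOX genes that maintain the meristem, KNAT6, a KNOX gene of organ boundaries, and LSH4, a boundary gene. The epidermis list gave LTP2 and the root list PYK10, a beta-glucosidase of endoplasmic reticulum bodies. None of the 30 genes of the flowering and floral identity list was apex-enriched, nor any of the photosynthesis, xylem or organ primordia lists. For description, 53 of the 112 genes were also sorted by function into 9 groups after their values were known, and 59 were left ungrouped.

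The first question was whether these genes stayed higher in apices than in leaves when FLC, SVP or both were absent. The 36 arrays of the mutants had no part in choosing the genes, and a gene was called when its change exceeded 2-fold and its adjusted p lay under 0.01 (limma, Benjamini-Hochberg adjustment over all genes). In SDs, 109 of the 112 genes were called higher in apices in *svp*, where 3.55% of all genes were, 112 in *flc* (4.56% of all genes) and 108 in *flc svp* (4.00%). In LDs the counts were 110 in *svp* (4.64%), 112 in *flc* (5.13%) and 107 in the double mutant (4.28%). In all 6 mutant settings 105 of the 112 were called, beside 2.35% of all genes. The median difference was 2.91, 3.02 and 2.93 in SDs and 3.00, 3.17 and 2.92 in LDs for *svp*, *flc* and *flc svp*, and 3.10 in SDs and 3.33 in LDs in wild type. By the same criterion 3.81% of all genes were higher in wild-type apices in SDs and 5.26% in LDs, where all 112 genes had been chosen to be so. A difference of at least 2.5 in all 6 settings was kept by 56 of them and reached by 57 genes in the whole table. The 3 apex arrays lay above the 3 leaf arrays for all 112 genes in *flc*, for 111 and 110 in *svp*, and for 110 and 108 in *flc svp*, in SDs and LDs respectively.

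**Figure D1:**
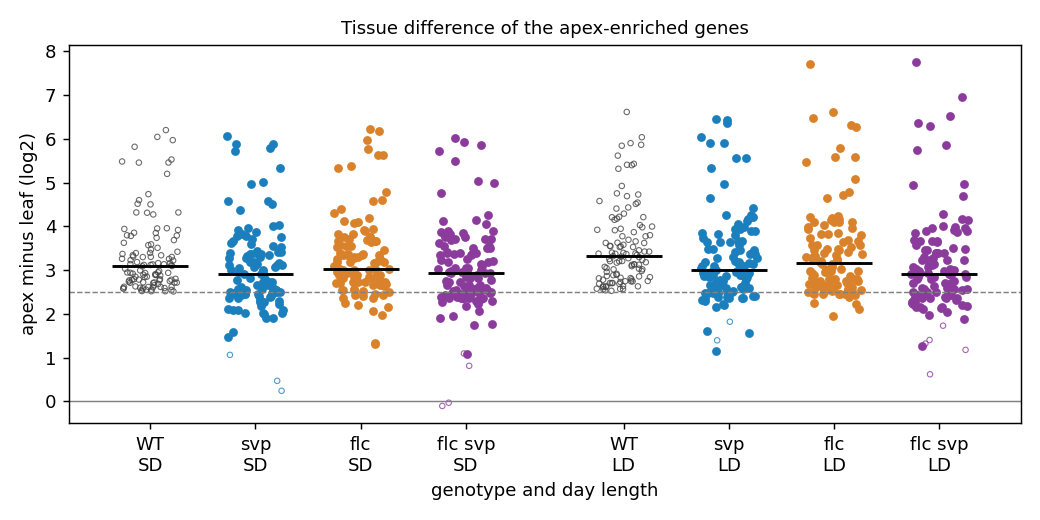
Apex minus leaf difference (log2) of the 112 apex-enriched genes in each genotype and day length, 1 point per gene, with the median as a black bar. Filled points of the mutants are genes called higher in apices, wild-type points are open because wild type chose the genes at the dashed line of 2.5, and the medians lie between 2.91 and 3.33.

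The meristem and cell division genes were called higher in apices in every mutant setting, at differences that varied. STM read 7.39, 7.45 and 7.36 in SD apices of wild type and 7.28, 6.90 and 7.23 in *flc svp*, and 4.74, 4.57 and 4.74 and then 4.73, 4.96 and 4.64 in the leaves of the same plants. Its difference ran from 2.36 to 3.14 over the 6 mutant settings, that of KNAT1 from 2.89 to 3.15 and that of KNAT6 from 2.17 to 2.92. LSH4 differed by at least 3.96 in wild type and by 3.04 to 3.93 in the mutants, and the cyclin gene CYC1BAT by at least 2.57 and by 2.08 to 2.73. AUR2 read 9.05, 8.94 and 8.87 in SD apices of wild type and 8.99, 8.73 and 8.88 in *flc svp*, and its difference ran from 2.5 to 3.02. The 3 apex arrays were above the 3 leaf arrays for each of these genes in each setting.

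The genes that lost the call in some setting were 7. AT4G38080, annotated in the study's gene tables as a hydroxyproline-rich glycoprotein, and PELPK1, a proline-rich cell wall protein, were called in 3 of the 6 settings. In *flc svp* in SDs their differences were -0.11 and -0.03. All 6 apex readings of the 2 genes lay below the median of all values, and at such low readings equal values do not show equal transcript levels. GASA5, a gene of the gibberellin-responsive GASA family, was called in 4 settings and differed by 1.06 in *svp* and 0.81 in *flc svp* in SDs. DFR and GSTF12, genes of anthocyanin synthesis and transport, were called in 4 settings, and LDOX, another enzyme of that pathway, in 5. The peroxidase gene AT4G37530 was called in 5 and stood at 1.09 in *flc svp* in SDs. DFR, GSTF12 and LDOX missed the call in *flc svp* in LDs, with differences of 1.32, 1.40 and 1.73, where their leaf arrays were uneven.

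The mutants were then compared with wild type within apices. These comparisons share the wild-type arrays that chose the genes, so the choice of the genes itself favours lower values in mutant apices. In SDs, 10 of the 112 genes were called lower in *svp* (0.171% of all genes were), 2 in *flc* (0.0452%) and 9 in *flc svp* (0.306%). In LDs 3 were called lower in *svp* (0.119%), 1 in *flc* (0.0226%) and 8 in the double mutant (0.284%). No apex-enriched gene was called higher in any mutant apex, where 0.0452%, 0.0290% and 0.168% of all genes were in SDs and 0.0226%, 0.0419% and 0.110% in LDs in the order *svp*, *flc* and the double mutant, and at an unadjusted p under 0.05 between 0 and 3 were higher against 11 to 37 lower. In either direction 13 to 40 of the 112 genes passed that unadjusted limit, beside 6.80% to 13.8% of all genes. In at least 1 of the 6 comparisons 15 genes were called, beside 0.719% of all genes. The median change of the 112 genes was -0.27 in *svp*, -0.08 in *flc* and -0.27 in the double mutant in SDs, and -0.15, -0.16 and -0.22 in LDs, whereas the medians of all genes lay within 0.01 of 0.

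Genes chosen in one day length were followed in the other to keep the choosing arrays out of the difference. The 164 genes past 2.5 in LDs had 13 called lower and 1 called higher in SD apices of *svp*, 3 lower in *flc*, and 13 lower and 1 higher in *flc svp*, with medians of -0.20, -0.10 and -0.17. The 137 genes past 2.5 in SDs had 3, 1 and 8 called lower in LD apices, with medians of -0.14, -0.16 and -0.20.

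Beside these changes the mean of the cell division list lay at 7.26 to 7.38 in the 8 apex groups, that of the photosynthesis list at 11.10 to 11.28 and that of the root list at 4.29 to 4.39. No gene of these 3 lists was called in a mutant apex. The mean of the shoot meristem and organ boundary list, which holds 4 of the 112 genes, was highest in wild type. It was 4.97 in SD apices of wild type against 4.87 in *svp*, 4.87 in *flc* and 4.89 in the double mutant, and in LD apices 5.03 against 4.98, 4.93 and 4.94, with 0 of its 28 genes called. In SDs its lowest wild-type array, at 4.94, lay above the highest array of *svp*, at 4.90. The mean of the xylem and secondary wall list was 4.82 in wild type, 4.97 in *svp*, 4.74 in *flc* and 5.03 in the double mutant in SD apices, with 0 of 13 genes called. The mean over the 112 genes was 8.80, 8.41, 8.60 and 8.39 in the same order. The part of tissue composition in these changes was not tested.

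**Figure D2:**
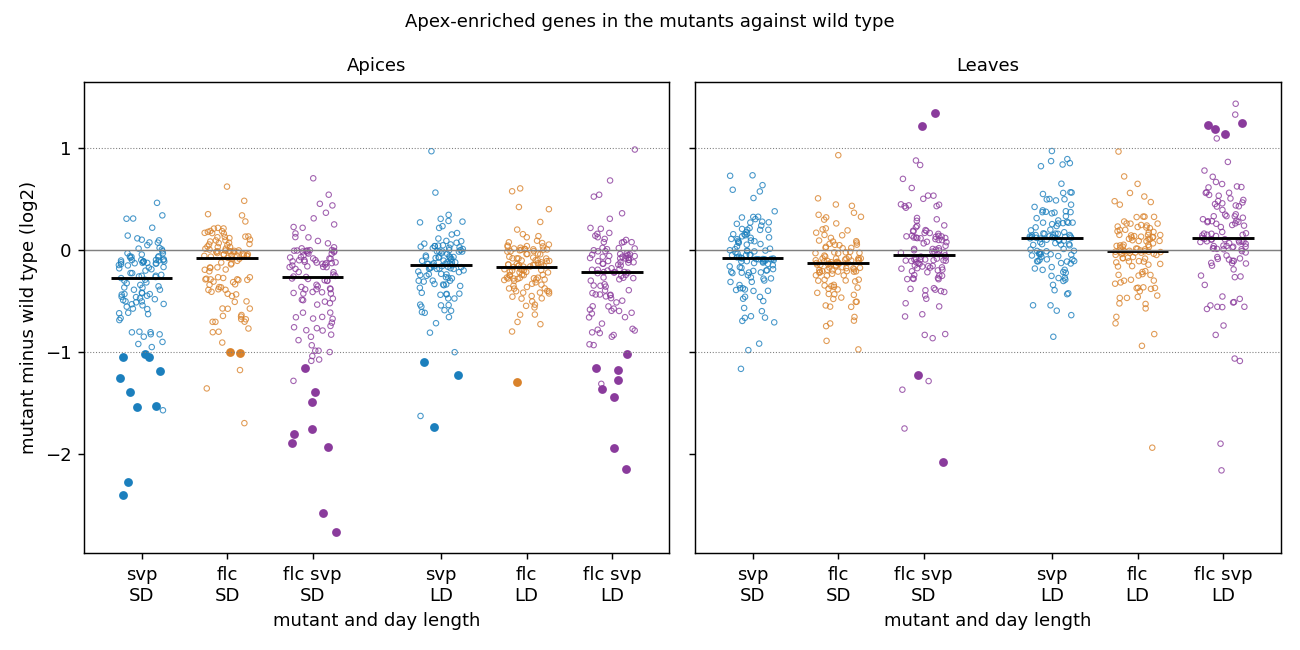
Change of each of the 112 genes in the mutants relative to wild type (log2), in apices on the left and leaves on the right, with called genes filled, the others open and the median as a black bar. Filled points in apices all lie below 0, 10, 2 and 9 of them in SDs and 3, 1 and 8 in LDs for *svp*, *flc* and *flc svp*.

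PELPK1 and AT4G38080, 2 cell wall protein genes, fell furthest. PELPK1 read 5.78, 6.02 and 5.14 in SD apices of wild type, 3.81, 3.26 and 3.03 in *svp*, 3.66, 5.47 and 3.73 in *flc*, and 2.89, 2.97 and 2.79 in *flc svp*. The 3 arrays of *svp* and of *flc svp* lay below those of wild type, while replicate 2 of *flc* reached into the wild-type range. The change was -2.28 ± 0.33 (SE, n = 3 per group) in *svp* (adjusted p = 5.66e-05) and -2.76 ± 0.33 in the double mutant (adjusted p = 8.13e-07), and -1.36 in *flc* did not pass (adjusted p = 0.0396). In LDs PELPK1 changed by -1.74 in *svp* and -2.15 in the double mutant (adjusted p = 0.00256 and 6.64e-05) and by -0.14 in *flc*. AT4G38080 read 6.76, 6.96 and 6.01 in SD apices of wild type, 4.93, 3.91 and 3.68 in *svp* and 3.98, 3.68 and 4.32 in *flc svp*. Its change was -2.40 ± 0.38 and -2.58 ± 0.38 (adjusted p = 0.000141 and 2.23e-05), with no overlap with wild type. In LDs the change of AT4G38080 was -1.94 in *flc svp* (adjusted p = 0.00138). Leaf readings of both genes were low in every group, so the apex changes down to these readings may understate the true ones, with PELPK1 between 2.63 and 3.28 and AT4G38080 between 3.75 and 4.43.

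EXT3, an extensin of the cell wall, and ARPN, a plantacyanin, fell in *svp* and in *flc svp* in both day lengths. EXT3 read 8.03, 8.57 and 8.22 in SD apices of wild type, 7.18, 7.14 and 6.33 in *svp*, 7.30, 8.25 and 7.75 in *flc* and 6.48, 6.38 and 6.69 in *flc svp*. Its change was -1.39 in *svp* and -1.76 ± 0.26 in the double mutant (adjusted p = 0.00156 and 2.34e-05). ARPN read 9.64, 9.88 and 9.61 in wild type, 8.64, 8.25 and 8.45 in *svp* and 8.32, 8.25 and 8.36 in *flc svp*, a change of -1.26 and of -1.40 ± 0.23 (adjusted p = 0.00133 and 0.000137). In LDs ARPN changed by -1.10 and -1.45 (adjusted p = 0.00678 and 9.61e-05) and EXT3 by -1.22 and -1.28 (adjusted p = 0.00725 and 0.00206). The arrays of *svp* and *flc svp* lay below those of wild type in each of these comparisons. In *flc* the changes of both genes lay between -0.32 and -0.51 and were not called. With EXT3, ARPN, PELPK1 and AT4G38080, 4 of the 11 cell wall genes were called in mutant apices, and the median of the 11 was -0.55 in *svp* and -0.49 in *flc svp* in SDs. Of all 112 genes 15 (13.4%) were called there, beside 0.719% of all genes, and their median was -0.27 in both. The cell wall group was formed after the values were known, so its count is a description.

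AT5G11930, annotated as a member of the thioredoxin superfamily, was called in 5 of the 6 apex comparisons and was the one gene called in *flc* in LDs. In LD apices it read 8.37, 8.30 and 8.21 in wild type, 7.90, 7.38 and 7.44 in *svp*, 6.77, 7.21 and 7.02 in *flc* and 6.81, 7.08 and 6.88 in *flc svp*. The 3 mutants lay below wild type without overlap. The change was -1.29 ± 0.21 in *flc* (adjusted p = 0.000798) and -1.37 ± 0.21 in the double mutant (adjusted p = 3.68e-05), and -0.72 in *svp* was not called. In SD apices AT5G11930 changed by -1.02 in *svp* and -1.49 in the double mutant (adjusted p = 0.00364 and 9.46e-06), and in *flc* it lay just past the 2-fold limit (adjusted p = 0.00842). NAS1, a nicotianamine synthase that makes a metal chelator, was the other gene called in *flc* in SDs, at -1.01 ± 0.21 (adjusted p = 0.00842), and it changed by -0.83 in *svp* and -0.94 in *flc svp*.

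AT4G11190, annotated as a dirigent-like protein, was called in SD apices and not in LD apices. It read 10.07, 10.05 and 9.96 in SD apices of wild type, 8.58, 8.25 and 8.65 in *svp*, 8.77, 9.82 and 9.07 in *flc* and 7.70, 8.44 and 8.25 in *flc svp*. All mutant arrays lay below the wild-type arrays. The change was -1.53 ± 0.25 in *svp* and -1.90 ± 0.25 in the double mutant (adjusted p = 0.000188 and 2.9e-06), and -0.81 in *flc* did not pass. In LDs the changes of AT4G11190 were 0.15, -0.28 and -0.30, and whether the mutant effect itself differed between day lengths was not tested.

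The peroxidase gene AT4G11290 read 7.49, 7.74 and 6.92 in SD apices of wild type, 6.04, 5.70 and 5.77 in *svp*, 6.86, 7.86 and 6.41 in *flc* and 5.73, 5.68 and 5.32 in *flc svp*. It changed by -1.54 in *svp* and -1.80 ± 0.28 in the double mutant (adjusted p = 0.00147 and 7.34e-05). AT3G21770, a further peroxidase gene, fell in *svp* by 1.05 (adjusted p = 0.00395), from 7.21, 7.58 and 7.04 to 6.36, 6.19 and 6.12. GASA5 read 6.86, 7.11 and 5.69 in wild type, 5.05, 5.20 and 4.68 in *svp* and 4.41, 4.60 and 4.84 in *flc svp*, where it changed by -1.94 ± 0.35 (adjusted p = 0.000506). UMAMIT14, an amino acid exporter, read 6.45, 6.84 and 5.72 in wild type and 5.41, 5.05 and 4.99 in *svp*, a change of -1.19 (adjusted p = 0.00193). Replicate 3 was the lowest wild-type array for AT4G11290, GASA5 and UMAMIT14, and none of the called changes in this group had overlapping arrays.

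PRB1, a basic pathogenesis-related protein, fell by 1.16 in SD apices of *flc svp* (adjusted p = 1.85e-05), with 8.52, 8.76 and 8.28 in wild type and 7.44, 7.41 and 7.25 in the double mutant. ADS4, a delta-9 desaturase-like gene, fell in *svp* by 1.06 in SDs (adjusted p = 0.00567) and stood at -0.17 in *flc svp*. In LD apices of *flc svp* the calls were completed by UMAMIT14 at -1.17, AT5G01870, of the lipid-transfer protein superfamily, at -1.16, and AT1G06420 at -1.02 (adjusted p = 0.00111, 0.0027 and 0.00106).

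Many of the calls in single mutants rested on single arrays. Of the 10 calls in SD apices of *svp*, those of AT4G11190, PELPK1 and AT4G38080 held whichever array was left out. With a separate fit for each tissue the call of AT4G38080 ended (adjusted p = 0.0152). The count was 5 without replicate 1 of wild type, 3 without replicate 2 of wild type, and 5 without replicate 2 or without replicate 3 of *svp*. The calls of ADS4 and AT3G21770 also ended without replicate 1 of *svp*, and those of ADS4 and AT5G11930 without replicate 3 of wild type. The ended calls had changes between -1.50 and -0.85 and adjusted p-values up to 0.0908. In SD apices of *flc* the 2 calls were 0 without any one replicate of wild type or without replicate 3 of *flc*, 1 without replicate 1 of *flc*, where the call of NAS1 ended, and 3 without replicate 2 of *flc*, where that of AT5G11930 ended, with values between -1.14 and -0.77. Replicate 2 gave the highest *flc* value for 12 of the 15 genes called lower in some apex. In LDs the 3 calls in *svp* became 1 without replicate 1 of wild type, 0 without replicate 2 of wild type, 0 without replicate 2 of *svp* and 1 without replicate 3 of *svp*. The call of EXT3 also ended without replicate 3 of wild type and that of ARPN without replicate 1 of *svp*, with changes up to -0.99. The call in *flc* ended without replicate 1 of wild type, replicate 2 of wild type or replicate 1 of *flc* (up to -1.17).

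The double mutant was steadier. Of its 9 calls in SD apices, 8 held whichever array was left out, and that of GASA5 ended without replicate 2 of wild type, at -1.67. Of its 8 calls in LD apices, those of PELPK1, ARPN and AT5G11930 held throughout. The count was 4 without replicate 1 of *flc svp* and 5 without replicate 2 of wild type or of *flc svp*. The call of EXT3 also ended without replicate 1 of wild type and replicate 3 of *flc svp*, that of UMAMIT14 without replicate 1 of wild type, and that of AT1G06420 without replicate 3 of wild type, at changes between -1.30 and -0.91. That of AT4G38080 ended without replicate 1 of *flc svp* or replicate 2 of wild type, at values up to -1.45.

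**Figure D3:**
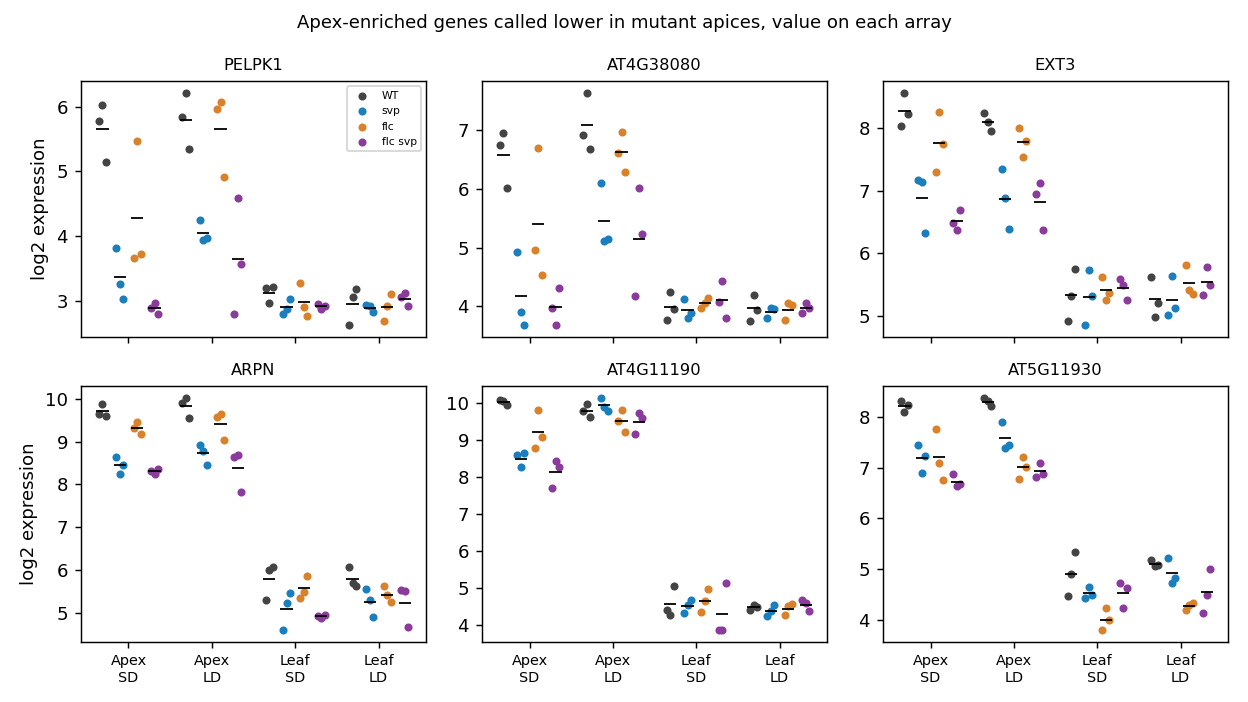
Log2 expression of 6 genes called lower in mutant apices, with 3 arrays per group as points coloured by genotype and the mean as a black bar, in apices and leaves and in SDs and LDs. In SD apices the *svp* and *flc svp* points lie below all wild-type points in each panel, and replicate 2 of *flc*, the middle point, is the highest of its group for 5 of the 6 genes.

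Among the other functional groups, 2 of 4 peroxidase genes were called in mutant apices, and 2 of 7 genes of lipid transfer, cutin and fatty acids. So were 1 of 3 genes of nicotianamine and iron and 1 of 6 of amino acid transport and metabolism. The defence and glucosinolate group had 1 of 7 called. The meristem, cell division and anthocyanin groups had none. All 6 meristem and boundary genes (STM, KNAT1, KNAT6, LSH4, LSH10 and ASL9) went uncalled in the 6 apex comparisons, with changes between -0.92 and 0.36. LSH4 read 9.74, 9.91 and 9.53 in SD apices of wild type, 8.95, 8.89 and 8.93 in *svp* and 9.08, 8.97 and 8.76 in *flc svp*. Its changes of -0.80 and -0.79 had adjusted p-values of 0.00364 and 0.00205 and stayed under 2-fold, and the arrays did not overlap. STM changed by -0.48 in *svp* and -0.26 in *flc svp*, neither of which passed. The 6 cell division genes, which were the 4 of the list with MAD2 and AT3G14190 (PATRONUS1), spanned -0.26 to 0.12 with none called. The 3 anthocyanin genes lay between -1.29 and -0.06 with none called. Over all 12 comparisons with wild type in both tissues, 91 of the 112 genes (81.25%) were never called, beside 96.5% of all genes.

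The comparison of the double mutant with each single mutant uses no array that chose the genes. Apices of *flc svp* and *svp* gave 0 calls among the 112 genes in SDs and 0 in LDs. The background of calls was 0.0194% higher and 0.0161% lower in SDs and 0.0226% and 0.00323% in LDs. At an unadjusted p under 0.05 lay 6 and 12 of the 112 genes, beside 7.43% and 5.17% of all genes. Against *flc*, 4 genes were lower in *flc svp* in SD apices, beside 0.0710% of all genes, and 0 were higher, beside 0.0613%. They were GASA5 at -2.06, AT4G11290 at -1.46, EXT3 at -1.25 and AT5G01870 at -1.08 (adjusted p = 0.000489, 0.00292, 0.0052 and 0.00989). In LD apices PELPK1 was the 1 gene called, at -2.00 ± 0.33 (adjusted p = 0.000285), with 5.96, 6.07 and 4.92 in *flc* and 2.79, 4.58 and 3.57 in *flc svp*, beside 0.132% of all genes, and 0 genes were higher, beside 0.0548%. The arrays of the 5 genes did not overlap between the 2 genotypes.

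These calls were sensitive to single arrays. That of GASA5 ended without replicate 2 of *flc* (-1.66) and that of PELPK1 without replicate 1 of *flc svp* (-1.57). AT4G11290 lost its call without replicate 2 of *flc* or without replicate 2 or 3 of *flc svp*, EXT3 lost it without any of 5 arrays (all but replicate 1 of *flc*) and AT5G01870 without any of the 6, at values between -1.51 and -0.98. In apices and leaves together 8 genes were called between double and single mutants (1.44% of all genes), and 5 without replicate 2 or without replicate 3 of the SD apices of *flc svp*.

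The comparisons of leaves share the wild-type leaf arrays that were required to be low, so here the choice of the genes favours higher values in the mutants. In *svp* and in *flc* 0 of the 112 genes were called in either day length, with 7 and 2 genes higher and 9 and 13 lower in SDs, and 17 and 5 higher and 3 and 8 lower in LDs, at an unadjusted p under 0.05. In either direction 16 and 15 genes passed that unadjusted limit in SDs and 20 and 13 in LDs. Of all genes 14.9% and 18.4% passed it in SDs and 11.9% and 15.0% in LDs. The background of calls in *svp* leaves was 0.793% higher and 0.123% lower in SDs and 0.116% and 0.0677% in LDs, and in *flc* leaves 1.48% and 0.306% in SDs and 0.729% and 0.100% in LDs. In *flc svp* 2 genes were called higher (1.20% of all genes) and 2 lower (0.545%) in SD leaves, and 4 higher (0.593%) and 0 lower (0.261%) in LD leaves. In all, 7 genes were called in leaves of some mutant, beside 3.05% of all genes. At an unadjusted p under 0.05, 9 genes were higher and 11 lower in SD leaves of the double mutant, and 30 were higher and 11 lower in its LD leaves. In either direction these were 20 and 41 genes, beside 21.5% and 18.3% of all genes. The median change of the 112 genes in SD leaves was -0.09 in *svp*, -0.13 in *flc* and -0.05 in the double mutant, with 71, 83 and 63 genes below 0. In LD leaves it was 0.11, -0.01 and 0.11, with 71, 54 and 79 genes above 0.

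NAS1 fell in SD leaves of *flc svp*, from 6.43, 6.45 and 6.003 to 5.34, 4.86 and 4.99, a change of -1.23 ± 0.21 (adjusted p = 4.55e-05) that held without any one array. AT4G29030 rose in LD leaves, from 7.98, 7.99 and 7.93 to 9.26, 9.05 and 9.14, a change of 1.19 ± 0.16 (adjusted p = 2.64e-06) that also held throughout. Its apex levels stayed between 12.08 and 12.53 on all 24 apex arrays. Against *flc*, AT4G29030 was higher in *flc svp* by 1.14 (adjusted p = 1.15e-05) in LD leaves.

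AT1G06100, annotated as a fatty acid desaturase, was higher in *flc svp* leaves in SDs by 1.21 and in LDs by 1.24 (adjusted p = 0.000913 and 0.00135). It read 6.52, 5.06 and 5.92 in SD leaves of wild type and 7.41, 6.53 and 7.20 in *flc svp*, with all double-mutant arrays just above the highest of wild type. The SD call ended without replicate 1 of *flc svp* or replicate 2 of wild type (from 0.84), and the LD call without replicate 2 of *flc svp* or replicate 3 of wild type (from 1.07). AAP2, an amino acid permease, rose by 1.22 in LD leaves (adjusted p = 1.87e-05), from 6.15, 6.75 and 7.45 to 7.90, 7.90 and 8.22, and fell under 2-fold without replicate 1 of wild type (0.91). AT5G33370 rose by 1.13 in LD leaves (adjusted p = 0.00129), a call that ended without replicate 2 or replicate 3 of *flc svp* (from 1.07). AT4G37530 at 1.34 and GSTF12 at -2.08 in SD leaves (adjusted p = 0.00782 and 0.00546) were the least firm. The former lost its call without any of the 6 arrays (from 1.21), and the latter without any but replicate 1 of wild type (up to -1.88). Against *flc*, AT1G06100 and AT5G33370 were higher in *flc svp* by 1.39 and 1.14 in SD leaves (0.119% of all genes higher and 0.239% lower), and AT1G06100 by 1.19 in LD leaves (0.210% and 0.206%), where AT4G29030 was the other of the 2 genes called. These calls of AT1G06100 ended in SDs without replicate 1 of *flc svp* or replicate 2 of *flc* and in LDs without any array but replicate 3 of *flc svp*, and that of AT5G33370 without replicate 1 or 3 of *flc svp* or replicate 1 or 2 of *flc*, at values between 0.92 and 1.28. Without replicate 1 of the wild-type LD leaves, 2 genes were called lower in LD leaves of *flc svp* where 0 had been. Against *svp*, leaves gave 0 calls in both day lengths, beside 0.384% of all genes higher and 0.352% lower in SDs and 0.200% and 0.0613% in LDs. At an unadjusted p under 0.05 lay 10 and 9 of the 112 genes, beside 13.8% and 9.31% of all genes.

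The transfer to LDs was examined next, as the difference between LDs and SDs in each genotype. The arrays of wild type had chosen the genes, so its values here are a description, while those of the mutants had no part in the choice. In apices every call was a rise. They numbered 3 in wild type (0.171% of all genes rose), 6 in *svp* (0.142%), 3 in *flc* (0.152%) and 4 in the double mutant (0.0645%), and the background of calls in the other direction was 0.126%, 0.113%, 0.0903% and 0.0419%. At an unadjusted p under 0.05, between 5 and 10 of the 112 genes were lower in LDs in each genotype and 18 to 31 were higher. In either direction 11.1% to 16.6% of all genes passed that limit. In at least 1 genotype 8 genes were called, beside 0.516% of all genes. The median change of the 112 genes was 0.07, 0.18, 0.03 and 0.11 in wild type, *svp*, *flc* and the double mutant.

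**Figure D4:**
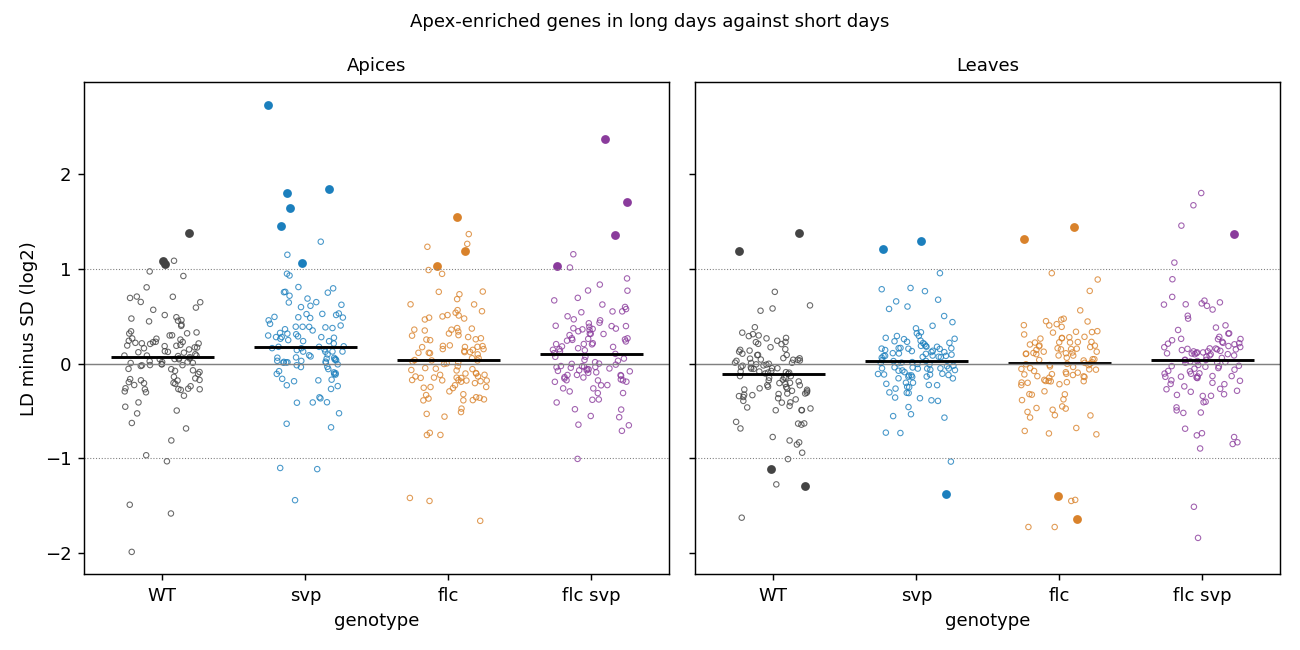
Change of each of the 112 genes in LDs relative to SDs (log2) by genotype, in apices on the left and leaves on the right, with called genes filled, the others open and the median as a black bar. Filled points in apices all lie above 1, with AT4G11290 highest in *svp* at 2.73 and in *flc svp* at 2.36, while the filled points in leaves lie on both sides.

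AT4G11290 rose in apices of all 4 genotypes, as did 6 genes of the whole table (0.0194%), with the wild-type part of this count a description. From SDs to LDs it went from 7.49, 7.74 and 6.92 to 8.62, 8.63 and 9.01 in wild type, and from 6.04, 5.70 and 5.77 to 8.58, 8.33 and 8.78 in *svp*. In *flc* it went from 6.86, 7.86 and 6.41 to 8.68, 8.59 and 8.49, and in *flc svp* from 5.73, 5.68 and 5.32 to 7.84, 7.49 and 8.50. The LD arrays lay above the SD arrays in each genotype, and the LD arrays of wild type, *svp* and *flc* overlapped. The rise was 1.37 in wild type, and it was 2.73 ± 0.28 in *svp*, 1.54 in *flc* and 2.36 ± 0.28 in the double mutant (adjusted p = 2.39e-07, 0.00115 and 6.12e-06). The rises in *svp* and *flc svp* held without any one array. That of wild type ended without any array but replicate 2 of the SD apices (from 1.13), and that of *flc* without replicate 1 or replicate 3 of its SD apices (from 1.22). AT4G11290 also rose in leaves of wild type, by 1.37 from 3.76 on all 3 SD arrays to 4.32, 5.33 and 5.74, and in leaves of *flc*, by 1.31 (adjusted p = 0.0024). Those calls ended in wild type without any array but replicate 1 of the LD leaves, and in *flc* without replicate 2 of either day length, at values between 1.07 and 1.39.

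In *svp* 5 further genes rose. Of these, UMAMIT14, AT3G21770 and AT4G11190 had, like AT4G11290, also been called lower than wild type in its SD apices, and both comparisons use the same 3 SD arrays of *svp*, so a low reading there moves both. UMAMIT14 went from 5.41, 5.05 and 4.99 to 7.35, 6.79 and 6.69, a rise of 1.79 ± 0.22 (adjusted p = 4.29e-06). AT3G21770 went from 6.36, 6.19 and 6.12 to 8.05, 7.80 and 7.72, a rise of 1.63 ± 0.21 (adjusted p = 8.77e-06), and AT4G11190 from 8.58, 8.25 and 8.65 to 10.14, 9.88 and 9.79, a rise of 1.44 ± 0.25 (adjusted p = 0.000396). All 3 held without any one array, and none of their arrays overlapped between day lengths. GASA5 rose by 1.84 (adjusted p = 0.00149), a call that ended without replicate 3 of the SD or replicate 1 of the LD apices of *svp* (from 1.58). AT1G62480 rose by 1.06 in *svp* (adjusted p = 0.00639) and by 1.05 in wild type, and each of these calls ended without any one of its 6 arrays (from 0.83).

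In *flc svp*, AT4G11190 rose by 1.36, GASA5 by 1.70 and AT3G21770 by 1.03 (adjusted p = 0.00213, 0.00886 and 0.00949). The latter 2 calls ended without any array but replicate 1 of the LD apices, and that of AT4G11190 without replicate 1 or 3 of the SD or replicate 2 or 3 of the LD apices, at values between 0.93 and 1.85. AT4G11190, GASA5 and AT4G11290 had also been called lower than wild type in SD apices of *flc svp*. Both comparisons use the same SD arrays of *flc svp*, so a low reading there moves both. UMAMIT14 was higher by 1.08 in LD apices of wild type, a call that held without replicate 2 of the SD apices and with no other array left out (from 0.77). In *flc* the 2 other genes called were ADS4 at 1.18, which ended without replicate 1 of the SD or replicate 2 of the LD apices, and AT4G12870 at 1.02, which ended without any one array (adjusted p = 0.00132 and 0.0061, from 0.85 when lost). Without replicate 2 of the SD apices of *flc*, 7 genes were called higher there.

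The difference between the LD response of apices and that of leaves was tested in the mutants, whose arrays had no part in choosing the genes. UMAMIT14 in *svp* was the one gene called, at 1.93 ± 0.32 (adjusted p = 0.00287, beside 0.0323% of all genes in either direction), with leaves at 3.64, 3.47 and 3.91 in SDs and 3.53, 3.59 and 3.49 in LDs. The call ended without replicate 2 or 3 of the SD apices, replicate 1 of the LD apices, replicate 3 of the SD leaves or replicate 2 or 3 of the LD leaves, at values from 1.73. All these leaf readings of UMAMIT14 lay below the median of all values, where changes are compressed. A flat leaf response at such readings does not show that leaves did not respond. In *flc* and in *flc svp* 0 genes were called (0.310% and 0.0355% of all genes), with 26 genes at an unadjusted p under 0.05 in each. Of all genes 14.8% and 9.76% passed that unadjusted limit.

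**Figure D5:**
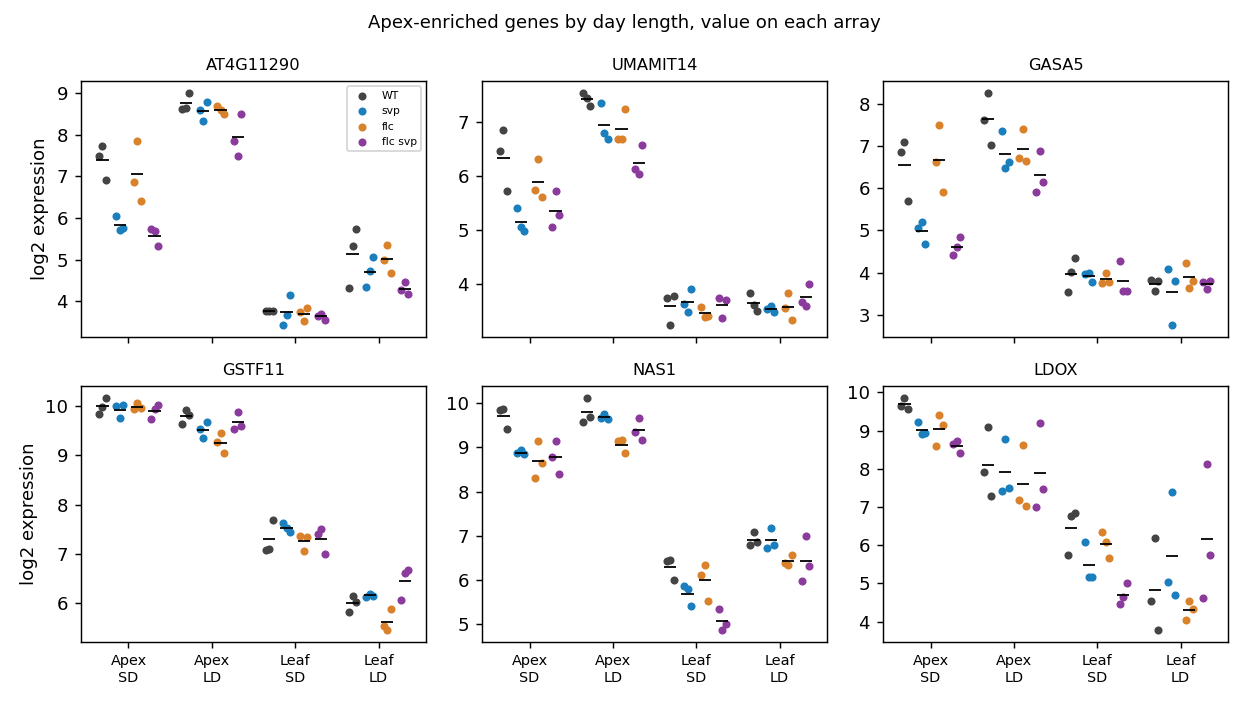
Log2 expression of 6 apex-enriched genes by tissue, day length and genotype, with 3 arrays per group as points and the mean as a black bar. AT4G11290, UMAMIT14 and GASA5 are higher in LD than in SD apices of *svp*, GSTF11 is lower in LD leaves, and the middle point of LDOX, replicate 2, is the highest of its group in every LD group.

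In leaves, 5 genes were called between day lengths in some genotype, beside 1.24% of all genes. The rises and falls numbered 2 and 2 in wild type (0.119% and 0.145% of all genes), 2 and 1 in *svp* (0.0806% and 0.297%), 2 and 2 in *flc* (0.306% and 0.532%), and 1 and 0 in *flc svp* (0.103% and 0.213%). As in apices, the wild-type counts are a description, because those arrays chose the genes. GSTF11, a glutathione transferase linked to glucosinolate synthesis, fell in leaves of wild type from 7.08, 7.10 and 7.69 to 5.82, 6.14 and 6.02, a change of -1.30. Its change was -1.37 in *svp* leaves and -1.64 in those of *flc* (adjusted p = 4.91e-07 and 8.09e-09), with no overlap of arrays, and these calls held without any one array. In *flc svp* it went from 7.40, 7.50 and 6.99 to 6.07, 6.61 and 6.68, a change of -0.85 that stayed under 2-fold. Its apex levels stayed between 9.05 and 10.17.

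NAS1 rose in LD leaves of *svp* from 5.87, 5.79 and 5.41 to 6.71, 7.17 and 6.79, and in *flc svp* from 5.34, 4.86 and 4.99 to 5.97, 6.98 and 6.32. The rises of 1.20 and 1.36 ± 0.21 (adjusted p = 0.000425 and 9.33e-05) held without any one array. NAS1 had also been called lower than wild type in SD leaves of *flc svp*, and both comparisons use the same SD arrays of that genotype. AT1G62480 rose in leaves of wild type, *svp* and *flc* by 1.18, 1.29 and 1.44 (adjusted p = 0.000733 and 8.17e-05 in the 2 mutants). Its call in *flc* held throughout, that of wild type ended without replicate 1 of the SD or replicate 3 of the LD leaves (from 0.83) and that of *svp* without replicate 3 of the LD leaves (1.07). HMT3, a homocysteine methyltransferase of methionine synthesis, fell in leaves of *flc* by 1.40 (adjusted p = 0.000275), with no array needed for the call. In wild type it fell by 1.11, a call that ended without replicate 2 or 3 of the SD or replicate 1 or 3 of the LD leaves (up to -0.76).

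The anthocyanin genes LDOX, DFR and GSTF12 were uneven among LD arrays. LDOX read 9.64, 9.86 and 9.57 in SD apices and 7.93, 9.10 and 7.29 in LD apices of wild type, and 8.66, 8.72 and 8.42 and then 6.99, 9.20 and 7.47 in *flc svp*. For the 3 genes replicate 2 was the highest array in all 12 combinations of gene and genotype in LD apices and in all 12 in LD leaves, against 8 of 12 in SD apices and 1 of 12 in SD leaves. Over all 112 genes and 4 genotypes, replicates 1, 2 and 3 were the highest in 129, 198 and 121 combinations in LD apices and in 145, 131 and 172 in LD leaves. With all arrays the LD changes of the 3 genes in apices lay between -1.98 and -0.64 and none was called. In leaves they lay between -1.72 and -1.01 in wild type and *flc*, between 0.23 and 0.78 in *svp* and between 1.45 and 1.80 in the double mutant, with none called.

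Without the 8 LD arrays of replicate 2, an alternative chosen after the values were seen, LDOX changed by -2.07, DFR by -2.62 and GSTF12 by -1.89 in apices of wild type, where all 3 passed. All 3 were then also called lower in LD apices and LD leaves of *flc*, DFR in apices of *svp*, and LDOX and GSTF12 in leaves of wild type. Replicate 2 was the highest LD array for these genes in every genotype and tissue, so leaving it out lowers their LD means by construction. These calls therefore cannot test whether the genes fall in LDs. What replicate 2 shared in LDs is not stated in the labels, and its part in these values was not tested beyond leaving it out.

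Over the comparisons of mutants with wild type, of double with single mutants and of LDs with SDs, 87 of the 112 apex-enriched genes (77.7%) were never called. The share of all genes never called in them was higher, at 95.6%. Those comparisons include the ones that share the wild-type arrays by which the genes were chosen.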

How the data were processed

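Total RNA of leaves and apices was hybridised to 48 AGRONOMICS1 arrays, 3 in each of 16 groups. The deposited log2 values of 31004 genes were made by the authors by RMA, a method that removes background, brings all arrays to one distribution and combines the probes of a gene. Such values compress changes of dim genes. The annotation and build behind the gene models are not given in the sources used here. Groups came from the sample labels. Precision is limited by the number of arrays.

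A linear model of the 16 group means, with the replicate number as a random block (correlation 0.0336), was fitted with limma 3.58.1 in R 4.3.3 and moderated with eBayes. P-values were adjusted over all genes in each of 39 contrasts by Benjamini-Hochberg, in place of Storey's q-values. A gene was called at a change over 2-fold and an adjusted p under 0.01. The fit was tested on simulated data.

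The members, lists and functional groups were chosen with earlier results of these data known. Named were the 10 genes with the widest wild-type difference, the 3 on each side of the threshold, up to 3 called genes per direction and contrast, list members, and FLC and SVP. Other names were chosen after their values were seen. Names came from the study's gene tables and RefSeq (TAIR10.1), in which all 112 members matched.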

Additional observations from a re-analysis of the deposited data

Results flagged for a closer look

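UMAMIT14 was flagged because its response to LDs differed between apices and leaves of *svp* in a test of the difference itself. The LD minus SD change was higher in apices than in leaves by 1.93 on the log2 scale (adjusted p = 0.00287, limma), and all 3 LD apex arrays lay above all 3 SD apex arrays. Its leaf readings in *svp* lay below the median of all values, where changes are compressed, so the leaf response is uncertain. The call ended when any of 6 of the 12 arrays was left out, namely replicates 2 and 3 of the SD apices, replicate 1 of the LD apices, replicate 3 of the SD leaves and replicates 2 and 3 of the LD leaves, with values of 1.73 and above. No gene was tested for a sample far from the others, because each group held 3 arrays.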

How the results depend on the processing

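Of the 79 calls of the 112 genes outside the tissue comparison, 29 held whichever array was left out and 28 in every alternative, and 0 reversed. With single arrays left out, the number of genes called in mutant apices was 11 to 17 (main value 15), in mutant leaves 5 to 8 (7), between double and single mutants 5 to 10 (8), between day lengths 9 to 14 (11) and in the tissue comparison of all 6 mutant settings 104 to 106 (105), and the number chosen was 101 to 114 (112). A threshold of 2.0 chose 218 genes, with 24 called in mutant apices, 20 between day lengths and 206 in the tissue comparison. A threshold of 3.0 chose 54, with 7, 3 in leaves, 4 between double and single mutants, 6 between day lengths and 52 in the tissue comparison. A separate fit for each tissue, which has fewer arrays for the spread, gave 3 in leaves and 4 between double and single mutants, and ended 29 of 78 calls. Without the 2-fold limit, 14 were called in leaves, 17 between double and single mutants and 18 between day lengths. Centring each array on its median ended 4 calls, and restricting the test to genes above the median of all values ended 0, with 5 calls in place of 3 in LD apices of *svp*. These causes were not tested.

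Arrays that shared a replicate number were slightly more alike than other arrays. The mean correlation of deviations was 0.0689 in leaves and 0.0576 in apices between arrays of the same number, with a lowest value of -0.147. Between arrays of other numbers it was -0.0344 in leaves and -0.0288 in apices. Whether the numbers mark paired samples was not tested further. Without the replicate block the counts were 14 in apices, 5 in leaves, 7 between double and single mutants, 11 between day lengths and 105 in the tissue comparison, and 9 of 79 calls ended, among them both in SD apices of *flc*. Without the 8 LD arrays of replicate 2 the counts were 11, 7, 7, 13 and 107. The 13 include LDOX, DFR and GSTF12, whose calls that omission favours.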
